A study of Mus musculus with 219 samples.

Results

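The genes described here encode the proteins that license origins of DNA replication: Mcm2, Mcm3, Mcm4, Mcm5, Mcm6, Mcm7, Cdt1, Gmnn, Cdc6 and Orc1. They were chosen by symbol, with earlier results of these data known. All 10 had a row in each of the deposited count tables of 32285 genes. There was 1 table for blastomeres of 2-cell mouse embryos and 1 for blastocysts. Before S phase, the origin recognition complex, of which Orc1 is the largest subunit, and the ATPase Cdc6 mark an origin, and Cdt1 brings the ring of Mcm2 to Mcm7 onto the DNA there, where it later becomes the core of the replicative helicase. Geminin, the product of Gmnn, binds Cdt1 and blocks a further round of loading until the next cell cycle. Early embryos start out with maternal stores of mRNAs and proteins, so that a transcript level is no measure of licensing itself.

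The embryos had the genotype B6C3F1xCD1: B6C3F1 oocytes in metaphase II received a CD1 sperm head by intracytoplasmic sperm injection (ICSI) opposite the meiotic spindle (contralateral), beside it (ipsilateral) or midway between (equatorial). All groups shared a single batch of frozen sperm per the study's methods. After ICSI the 2-cell embryos were bisected and each sister blastomere was either lysed or cultured on to a twin blastocyst, while intact blastocysts grew from embryos left whole, all in KSOM medium with amino acids. The groups used here were 2-cell embryos after contralateral (21), ipsilateral (21) and equatorial (13) ICSI, twin pairs (6, 7 and 6) and intact blastocysts (11, 8 and 12). Of the 62 2-cell pairs with counts for both sisters, the 55 kept had at least 9500 detected genes in each sister. The labels name equally many 2-cell pairs at each site, so that the loss was largest after equatorial ICSI. The labels do not say which embryos shared an oocyte donor or an ICSI session, so that p-values measure the spread between embryos only.

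Total counts ran from 360474 to 2100561 in the 110 blastomeres (median 1340425), from 713410 to 2161062 in the 38 twins (median 1093478) and from 234099 to 1254428 in the 31 intact blastocysts (median 705837). Equatorial blastomeres were shallower than contralateral and ipsilateral ones, with medians of 1108741, 1297280 and 1530273 counts and of 11514, 12085 and 12164 detected genes. The labels place the libraries on plates, and all blastocysts but only 13 of the 55 2-cell embryos were on plate 2 (3 contralateral, 8 ipsilateral, 2 equatorial). Of 7 oocyte-derived transcripts, all had a median above 0 at the 2-cell stage, with a summed median of 3828 CPM. At that stage 5 of 8 trophectoderm markers (all but Cdx2, Elf5 and Krt7), 6 of 7 epiblast and 4 of 7 primitive endoderm markers also had a median above 0, with summed medians of 106.1, 194 and 65.7 CPM. All 8 trophectoderm, 7 epiblast and 7 primitive endoderm markers had a median above 0 in twin and in intact blastocysts.

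In GRCm38, Mcm3 (ENSMUSG00000041859) lies at chr1:20802968-20820312 and Mcm6 (ENSMUSG00000026355) at chr1:128331590-128359664, both on the minus strand. Mcm2 (ENSMUSG00000002870) lies at chr6:88883474-88898780, Mcm4 (ENSMUSG00000022673) at chr16:15623897-15637400, Mcm7 (ENSMUSG00000029730) at chr5:138164583-138172422 and Gmnn (ENSMUSG00000006715) at chr13:24751845-24761923, also on the minus strand. On the plus strand, Mcm5 (ENSMUSG00000005410) lies at chr8:75109569-75128439, Cdt1 (ENSMUSG00000006585) at chr8:122568015-122573554, Cdc6 (ENSMUSG00000017499) at chr11:98907801-98923940 and Orc1 (ENSMUSG00000028587) at chr4:108579423-108614833. Reads were counted without strand over exons. Of the exonic bases, 12.6% in Mcm7 also belong to other genes (Cops6 and Ap4m1 on the opposite strand, the microRNA genes Mir25 and Mir93 within it), and 10.8% in Orc1 to the antisense gene Gm12743, so that reads there cannot be assigned with certainty. The other 8 genes had no such overlap.

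E2F transcription factors are known to drive genes of the G1 to S transition, licensing genes among them. RefSeq windows from 250 bases before to 50 after a start site were at hand for 8 of the 10 genes, all but Mcm4 and Gmnn. They were searched on both strands for 4 words of 8 letters that E2F factors are known to bind, TTTGGCGC, TTTCGCGC, TTTCCCGC and TTTGCCGC. Such a word occurred in 7 of the 9 windows of these genes (77.8%) and in 744 of all 32851 windows (2.26%). It occurred in 7 of the 8 genes, and the exception was Mcm2. No single word was common to the 7 genes, and the stretches below show where a word sits in each gene, 5′ to 3′ in the direction of the gene (GRCm38), with the word in capitals, either as listed or as its reverse complement, and with capitals over both where words overlap.
Mcm3, chr1:20820263-20820285, minus strand: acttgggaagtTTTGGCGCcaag
Mcm5, chr8:75109347-75109376, plus strand: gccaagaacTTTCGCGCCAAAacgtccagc
Mcm6, chr1:128359795-128359824, minus strand: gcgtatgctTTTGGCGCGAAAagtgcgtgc
Mcm7, chr5:138171849-138171878, minus strand: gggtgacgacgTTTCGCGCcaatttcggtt
Cdt1, chr8:122568036-122568064, plus strand: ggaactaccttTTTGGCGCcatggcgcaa
Cdc6, chr11:98908002-98908031, plus strand: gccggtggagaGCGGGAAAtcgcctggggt
Orc1, chr4:108579416-108579445, plus strand: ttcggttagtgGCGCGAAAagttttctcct
In Mcm5 and Mcm6 a forward and a reverse word overlap in the same stretch, and Mcm3, Mcm6 and Mcm7 each hold another word elsewhere in their window. CCAAT, the word of the factor NF-Y, was in 6 of the 8 genes (all but Cdt1 and Cdc6) and in 37.4% of all windows, and TTTGAA, the core of the cell cycle homology region, was in Mcm2 alone and in 17.9% of all windows. A match is a description of letters and no evidence that a factor binds there.

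Levels per exonic length (TPM) gave Gmnn the highest mean of the licensing genes in 2-cell embryos, twin pairs and intact blastocysts. In the 2-cell embryos Gmnn reached 1218 ± 129.3 TPM (SD, n = 55), above 99.7% of genes with counts, and the next gene, Orc1, reached 95.9 ± 31. Cdt1 (84.2 ± 32.3) and Mcm4 (83.7 ± 27.1) followed, then Mcm2 (72.2 ± 19.01) and Mcm6 (70.8 ± 25.6), then Mcm3 (56.3 ± 34.6) and Mcm5 (55.4 ± 23.5), and last Cdc6 (46.9 ± 20.9) and Mcm7 (36.8 ± 14.7). Apart from Gmnn, neighbours in this order differed by less than the SD between embryos. The subunits of the Mcm ring, which assemble in equal numbers, differed 2.27-fold between the highest and lowest mean at the 2-cell stage.

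In twin pairs (n = 19) the order was Gmnn (498 ± 42.7 TPM), Mcm5 (174 ± 26.2), Cdt1 (148 ± 17.7), Mcm3 (134 ± 21.8), Mcm6 (130.1 ± 19.8), Mcm4 (117.7 ± 16.9), Mcm7 (100.2 ± 12.96), Mcm2 (62.1 ± 7.96), Cdc6 (57.4 ± 10.98) and Orc1 (28.7 ± 9.03). In intact blastocysts (n = 31) Gmnn was at 237 ± 100.2 TPM, Mcm5 at 128.5 ± 40.7, Cdt1 at 90.3 ± 34.4, Mcm6 at 89.6 ± 35.6, Mcm4 at 85.7 ± 31.4, Mcm3 at 83.6 ± 33.2, Mcm7 at 58.97 ± 23.8, Mcm2 at 52.4 ± 15.1, Cdc6 at 26.7 ± 17.1 and Orc1 at 22.7 ± 16.4. Neighbours differed by more than the larger SD for Gmnn over Mcm5 in both groups, for Mcm4 over Mcm7, Mcm7 over Mcm2 and Cdc6 over Orc1 in twin pairs, and for Mcm2 over Cdc6 in intact blastocysts. Orc1 thus stood second of 10 at the 2-cell stage and last in blastocysts, while Mcm5 stood eighth and second. The Mcm2 to Mcm7 levels added up to 375 TPM in 2-cell embryos, 719 in twin pairs and 499 in intact blastocysts. Per the study's methods, blastocysts were sequenced single-end, while the blastomeres came from a paired-end and a single-end dataset. Of the paired-end dataset only the first reads were kept, trimmed to the single-end length. The stages were also counted in separate tables, and all blastocysts but a minority of the 2-cell embryos were on plate 2. These values therefore stand side by side without a test.

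**Figure D1:**
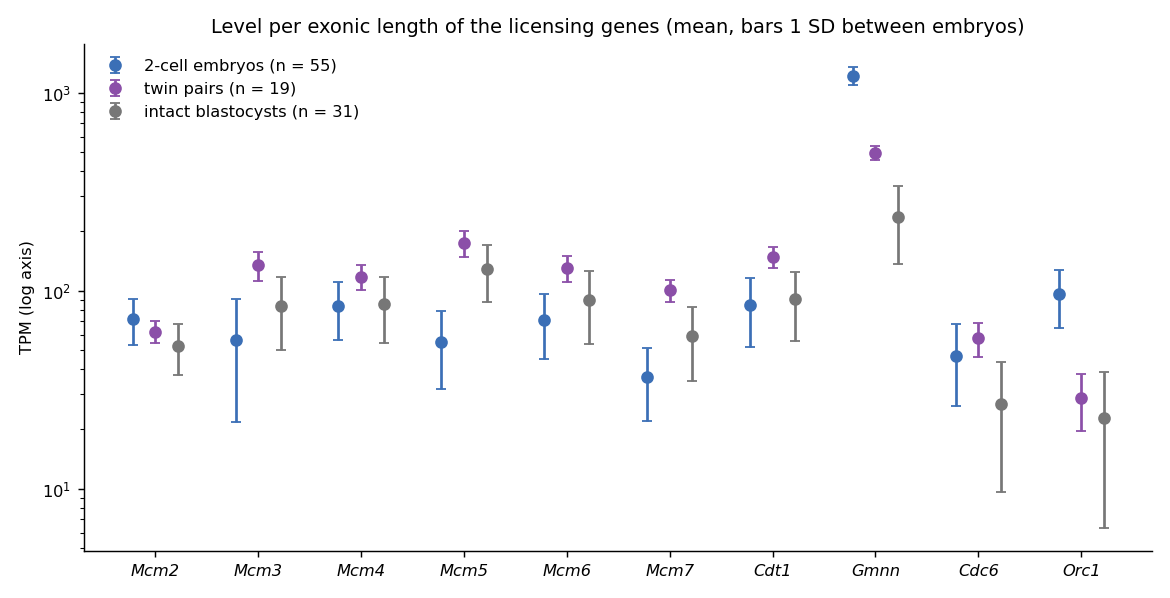
Mean TPM of each licensing gene on a log axis in 2-cell embryos (n = 55), twin pairs (n = 19) and intact blastocysts (n = 31), with bars of 1 SD between embryos. Gmnn is the highest gene in all 3 groups, and Orc1 moves from second in 2-cell embryos to last in blastocysts.

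The first comparison asked whether the ICSI site left a mark on the licensing genes in 2-cell embryos, with the counts of both sisters added. After contralateral ICSI, 3 of the 10 genes were lower than after equatorial ICSI and none was higher: Cdt1, the loading factor, and Mcm3 and Mcm6, subunits of the helicase ring. Of all 13141 genes tested, 13.2% passed the same test in either direction (936 higher and 797 lower, against 774 and 1205 by a rank-sum test on TPM) and 6.06% passed it as lower. The median log2 fold change was -0.27 over the 10 genes and -0.00015 over all genes tested. By edgeR's quasi-likelihood test no licensing gene passed in ipsilateral against equatorial embryos, where 6.65% of genes did.

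Cdt1 ran from 27.7 to 121.3 CPM (a share of all counts of the embryo, scaled alike in all) with a median of 62.4 in contralateral embryos, from 40.98 to 128.8 with a median of 79.7 in ipsilateral embryos, and from 17.2 to 143 with a median of 107.3 in equatorial embryos. Of the 21 contralateral embryos, 1 exceeded the equatorial median, although the ranges overlapped. The log2 fold change was -0.60 ± 0.18 (SE) against equatorial (edgeR, adjusted p = 0.016). It was -0.45 ± 0.19 for ipsilateral against equatorial embryos, which did not pass (edgeR, adjusted p = 0.143) except with plate 1 alone (adjusted p = 0.044).

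Mcm3 ran from 15.1 to 140 CPM (median 45.6) in contralateral, from 11.5 to 140 (median 51.6) in ipsilateral and from 0 to 145 (median 100.9) in equatorial embryos. Again 1 of 21 contralateral embryos lay above the equatorial median, and the ranges overlapped throughout. The embryo listed at 0, an equatorial embryo of plate 2 that was also the lowest for Cdt1, had 2612390 counts in all, which allows up to 1.15 CPM (3 counts, counting error only). The log2 fold change of contralateral against equatorial embryos was -0.86 ± 0.30 (edgeR, adjusted p = 0.043), and that of ipsilateral against equatorial -0.60 ± 0.31 (adjusted p = 0.267).

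Mcm6 ran from 28.9 to 147 CPM (median 89.1) in contralateral, from 64.2 to 182 (median 98.4) in ipsilateral and from 71.9 to 153 (median 124.5) in equatorial embryos. Of the contralateral embryos 8 lay below every equatorial embryo, and 2 lay above the equatorial median. The log2 fold change was -0.51 ± 0.17 against equatorial embryos (edgeR, adjusted p = 0.038).

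Gmnn, the inhibitor of Cdt1, pointed the other way without passing: 442 to 769 CPM (median 553) in contralateral, 454 to 669 (median 534) in ipsilateral and 413 to 567 (median 505) in equatorial embryos, a log2 fold change of 0.20 ± 0.07 (edgeR, adjusted p = 0.065). Gmnn had the narrowest spread of the 10 genes relative to its level, and 16 of 21 contralateral embryos lay above the equatorial median. The ratio of Gmnn to Cdt1 TPM had medians of 23.6, 13.5 and 9.82 after contralateral, ipsilateral and equatorial ICSI, with ranges that overlapped.

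The other 6 genes did not pass. Their log2 fold changes against equatorial embryos lay between -0.31 ± 0.22 (Mcm5) and 0.16 ± 0.17 (Mcm4) for contralateral, and between -0.32 ± 0.22 (Mcm5) and 0.05 ± 0.18 (Mcm4) for ipsilateral ICSI. Mcm2, at 149, 161 and 157 CPM in the median embryo of the contralateral, ipsilateral and equatorial groups, had a 95% interval of 0.78 to 1.12-fold for contralateral against equatorial. Orc1 had medians of 80.5, 100.03 and 100.8 CPM in the same order and an interval of 0.66 to 1.01-fold.

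Contralateral against ipsilateral embryos gave 0 calls among the 10 genes and 0 among all genes (0% by edgeR, with 555 at an unadjusted p under 0.05). DESeq2 called 0.479% of genes there and the rank-sum test 0, neither of them including a licensing gene. The largest log2 difference among the 10 was that of Mcm6, -0.33 ± 0.16, with a 95% interval of 0.64 to 0.98-fold, and that of Gmnn was 0.13 ± 0.07.

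Depth moved with these groups, so that the fits were repeated with the total count and the number of detected genes of each embryo as covariates. Cdt1 then stayed past the threshold at -0.61 ± 0.20 (edgeR, adjusted p = 0.042), Mcm6 was at -0.51 ± 0.19 (adjusted p = 0.090) and Mcm3 at -0.70 ± 0.32 (adjusted p = 0.181), and Gmnn passed at 0.27 ± 0.07 (adjusted p = 0.013). On plate 1 alone (18 contralateral, 11 equatorial embryos) all 4 passed by edgeR, with Cdt1 at -0.69, Mcm3 at -0.85, Mcm6 at -0.59 and Gmnn at 0.29. With both plates but no plate term, Cdt1 and Mcm6 passed, while Mcm3 and Gmnn did not. With the 48 pairs under 2% mitochondrial counts, only Mcm6 of the 4 passed, while Cdt1 (-0.50, adjusted p = 0.098) and Mcm3 (-0.88, adjusted p = 0.096) kept their direction. Of all genes tested, 1067 of 13141 passed with depth covariates and 2176 of 12864 on plate 1 alone. Without a plate term 1695 of 13141 passed, and under the mitochondrial limit 1104 of 13022. The median share of mitochondrial counts was 1.52%, 1.51% and 1.24% in contralateral, ipsilateral and equatorial blastomeres. Of 7 oocyte-derived transcripts, Dppa3 was higher (0.25 ± 0.09) and Gdf9 lower (-0.31 ± 0.09) in contralateral than in equatorial embryos. Summed cumulus markers had medians of 35.2, 42.7 and 59.5 CPM after contralateral, ipsilateral and equatorial ICSI (0 of the 5 tested passed), with Ptx3, Amh, Fshr, Foxl2 and Inhba at a median of 0 in all 3. The part of these in the result was not tested.

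**Figure D2:**
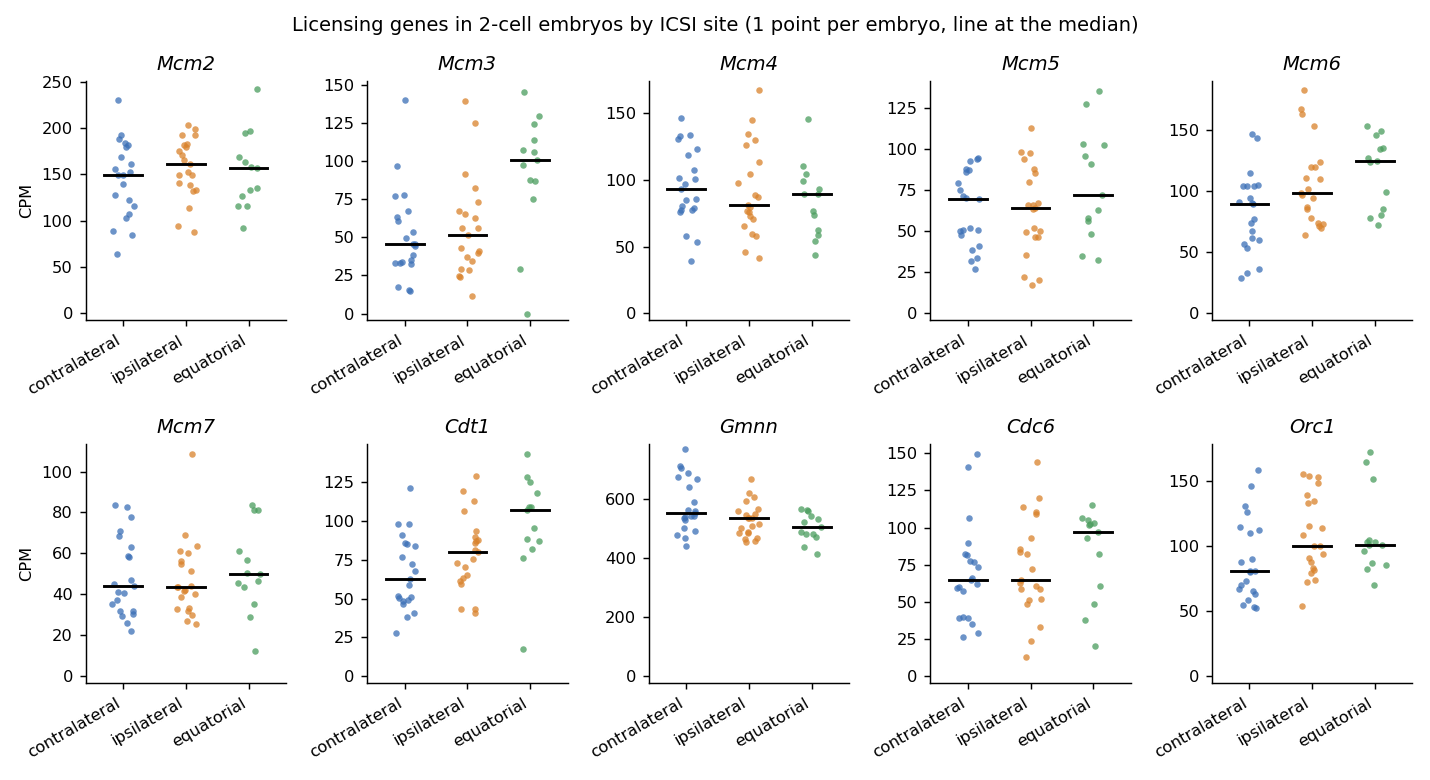
CPM of each licensing gene in 2-cell embryos by ICSI site, 1 point per embryo with both sisters added (21 contralateral, 21 ipsilateral, 13 equatorial) and a line at the median. The equatorial medians of Mcm3 (100.9 CPM) and Cdt1 (107.3 CPM) stand above the contralateral medians of 45.6 and 62.4 CPM, and the ranges overlap for every gene.

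Between sister blastomeres, Gmnn differed the least of the 10 genes and Mcm3 the most. Over the 55 pairs, the median size of the log2 ratio between sisters was 0.124 for Gmnn, a value undercut by 0.499% of the 9810 genes tested, and no pair differed more than 2-fold. It rose over Mcm2 (0.368), Mcm6 (0.481), Orc1 (0.501), Cdt1 (0.539), Cdc6 (0.622), Mcm4 (0.672), Mcm5 (0.751) and Mcm7 (0.784) to Mcm3 (1.10). The median over all genes tested was 0.785, so that of the 10 genes only Mcm3 stood above it. None of the 10 genes was compared with genes of like abundance. Even the lowest by mean TPM, Mcm7, stood above 80.5% of genes with counts, and Gmnn had more reads than the other 9 genes. The spread includes that of separate amplification of each blastomere.

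Mcm3 differed more than 2-fold in 32 of the 55 pairs. The widest pair, an equatorial embryo of plate 2, held 0 Mcm3 reads in sister a and 334 in sister b, or 0 and 204 CPM. Of the 110 blastomeres, 4 were listed at 0 for Mcm3. The widest Gmnn pair, after contralateral ICSI, held 620 and 1159 CPM. The widest Cdt1 and Cdc6 pairs came from the other equatorial embryo of plate 2, the embryo listed at 0 for Mcm3 with both sisters added. Its sister a held 1 Cdt1 read (0.966 CPM) and 52 Cdc6 reads (50.2 CPM), and its sister b held 44 Cdt1 reads (27.9 CPM) and 1 Cdc6 read (0.634 CPM).

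The letters a and b follow no rule given in the sources used here. None of the 10 genes differed between sister b and sister a, nor did any gene (edgeR, 0% of 9810, 464 at an unadjusted p under 0.05). The fold of b over a had 95% intervals of 0.99 to 1.09 for Gmnn, 0.92 to 1.12 for Mcm2 and 0.52 to 1.10 for Mcm3. Without a rule for the letters, differences of either sign cancel, so that these intervals do not bound how unequal sisters are.

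Inequality between sisters did not pass a test for a difference by ICSI site in any of the 10 genes. Of the 30 comparisons of the median size of the log2 ratio (permutation test over embryos, 2-sided), 2 had an unadjusted p under 0.05: Cdt1 with 0.749 after contralateral against 0.305 after equatorial ICSI (p = 0.041), and Mcm5 with 0.551 after ipsilateral against 1.18 after equatorial ICSI (p = 0.043). The adjusted p was 0.591 for both, the lowest of the 30.

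The median size of the log2 ratio was smaller between twin blastocysts than between sister blastomeres for 8 of the 10 genes and larger for Gmnn and Orc1. Over the 19 pairs it was 0.130 for Cdt1, 0.197 for Mcm5, 0.203 for Mcm2, 0.223 for Mcm6, 0.238 for Mcm4, 0.280 for Gmnn, 0.296 for Mcm7, 0.328 for Mcm3, 0.400 for Cdc6 and 0.752 for Orc1. The median over all genes tested was smaller in twins too, at 0.457 beside 0.785 over those tested in sister blastomeres. The share of all genes with a smaller value in twins was not counted. Only Cdc6 (4 pairs) and Orc1 (7 pairs) differed more than 2-fold in any pair. A blastocyst holds many cells and other counts than a blastomere, so that the stages were not tested against each other.

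**Figure D3:**
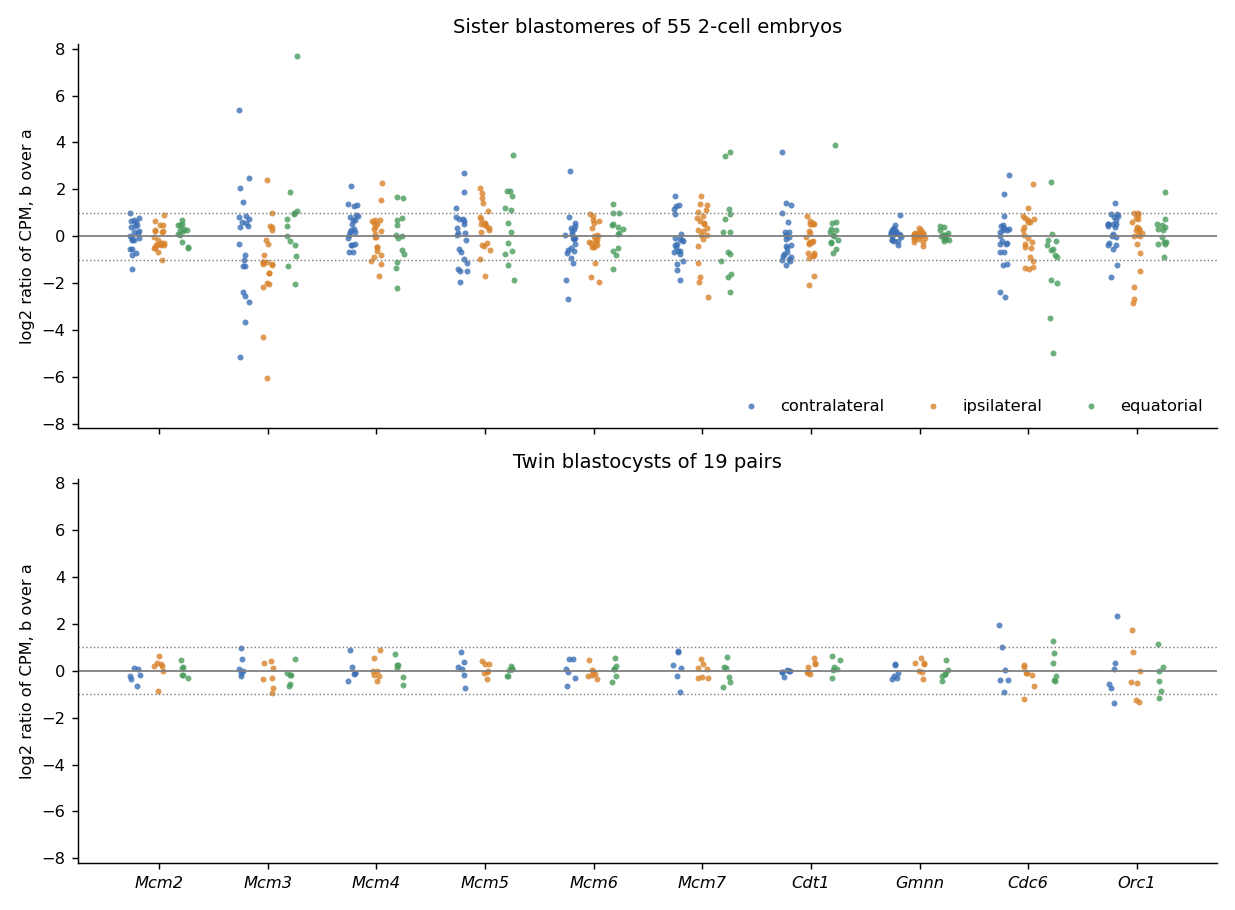
Log2 ratio of CPM (with 1 CPM added) of sister b over sister a in 55 2-cell embryos, above, and of twin b over twin a in 19 pairs, below, by gene and coloured by ICSI site, with dotted lines at 2-fold. The Gmnn points lie within 0.90 of 0 in the 2-cell embryos, while Mcm3 reaches 7.68.

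The second comparison set twin blastocysts, each pair added up as the yield of 1 embryo, against intact blastocysts. Of the 10 licensing genes 8 were higher in twins and none was lower, where 42.3% of the 9379 genes tested passed in either direction (1909 higher and 2058 lower, against 3173 and 1707 by a rank-sum test on TPM) and 20.4% as higher in twins. The loading factor Cdc6 and the inhibitor Gmnn had the largest log2 fold changes. Mcm7, Cdt1 and Mcm3 followed within 1 SE of each other, then Mcm6, Mcm4 and Mcm5. The genes were not tested against each other. The median log2 fold change was 0.53 over the 10 genes and -0.0073 over all genes tested. Expression here is a share of each blastocyst's RNA, so that fewer cells of a type and less RNA per cell cannot be told apart.

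Gmnn ran from 221 to 300.4 CPM (median 252) in the twin pairs and from 0 to 210.3 (median 120.5) in intact blastocysts. The groups did not overlap, although the 38 twins taken singly ran from 195 to 325 CPM and so reached below the highest intact blastocyst. The share of all genes without such overlap was not counted, and 42.3% of the genes tested passed in this comparison. The log2 fold change was 0.98 ± 0.17, or 1.98-fold (edgeR, adjusted p = 1.89e-06). The blastocyst listed at 0, a contralateral one, had 271120 counts, which allows up to 11.1 CPM.

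Cdc6 ran from 70.6 to 151 CPM (median 100.5) in twin pairs and from 0 to 107.7 (median 48.2) in intact blastocysts. All 19 twin pairs lay above the intact median, and 2 intact blastocysts were listed at 0, which allows up to 11.1 and 12.02 CPM. Its log2 fold change of 1.06 ± 0.22 was the largest of the 10 in this fit (edgeR, adjusted p = 5.82e-05). Cdt1 ran from 129.8 to 219 CPM (median 160.3) in twin pairs and from 31.5 to 180 (median 104) in intact blastocysts, with 25 of the 31 intact blastocysts below every twin pair, and a log2 fold change of 0.63 ± 0.13 (edgeR, adjusted p = 5.83e-05).

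Among the ring subunits, Mcm7 ran from 117.9 to 196 CPM (median 155) in twin pairs and from 26.1 to 171 (median 88.2) in intact blastocysts. Its log2 fold change was 0.69 ± 0.14 (edgeR, adjusted p = 7.51e-05), and all 19 twin pairs exceeded the intact median. Mcm3 went from a median of 117.3 CPM in intact blastocysts (0 to 181, with 1 listed at 0) to 174 in twin pairs (125.9 to 232), a log2 fold change of 0.60 ± 0.17 (adjusted p = 0.0027). For Mcm6 the medians were 157 (29.5 to 259) and 210.0 CPM (157 to 265), with 0.46 ± 0.14 (adjusted p = 0.0057). For Mcm4 they were 106.9 (20.03 to 211) and 147 CPM (104 to 196), with 0.40 ± 0.13 (adjusted p = 0.013), and for Mcm5 177 (55.8 to 294) and 243 CPM (186 to 314), with 0.36 ± 0.12 (adjusted p = 0.016). For these 4 genes, too, the intact range reached into that of the twin pairs and extended far below it. All 19 twin pairs exceeded the intact median of Mcm3, Mcm5 and Mcm6 as well, and 18 that of Mcm4. The share of all genes with all twin pairs above the intact median was not counted.

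Mcm2 and Orc1 did not pass in the main fit. In 2 of 11 alternatives Mcm2 passed as higher, the rank-sum test on TPM and the fit of each twin with the embryo as a block. Mcm2 had a median of 157 CPM (104.6 to 182) in twin pairs and 124.7 (31.4 to 197) in intact blastocysts, a 1.13-fold difference with a 95% interval of 0.96 to 1.34 (edgeR, adjusted p = 0.2503). Orc1 had a median of 32.1 CPM (16.8 to 65.7) in twin pairs and 23.6 (1.58 to 81.2) in intact blastocysts, 1.27-fold with an interval of 0.88 to 1.83 (adjusted p = 0.320). In both genes the ranges overlapped, with 17 and 16 of the 19 twin pairs above the intact median.

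**Figure D4:**
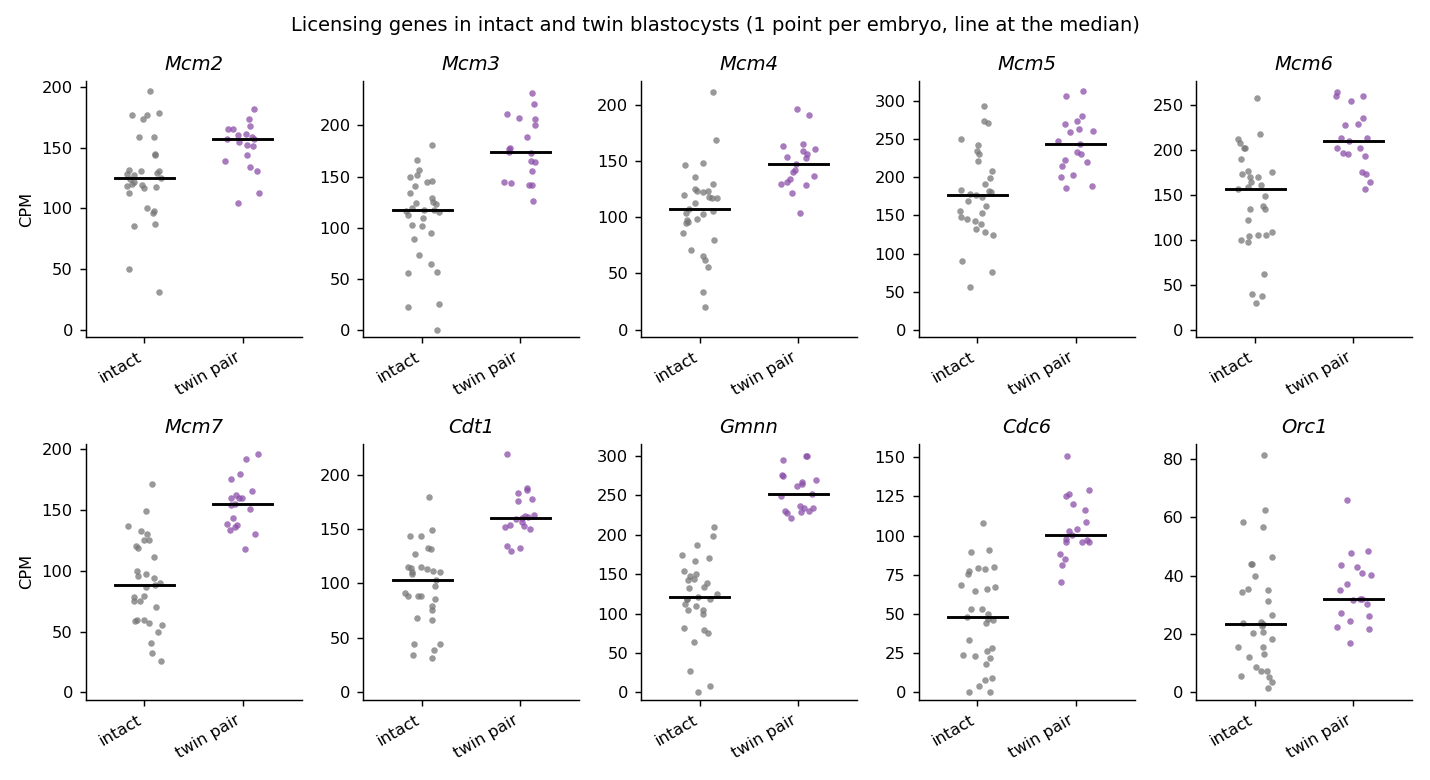
CPM of each licensing gene in 31 intact blastocysts and 19 twin pairs (counts of both twins added), 1 point per embryo and a line at the median. The groups do not overlap for Gmnn, and for Mcm3, Mcm5, Mcm6, Mcm7, Cdt1 and Cdc6 all 19 twin pairs lie above the intact median. The share of all genes without overlap, or with all twin pairs above the intact median, was not counted.

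The direction was alike at each ICSI site. The ratio of mean CPM in twin pairs to that in intact blastocysts exceeded 1 for 10 of 10 genes after contralateral ICSI (median ratio 1.78), 10 of 10 after ipsilateral (1.43) and 9 of 10 after equatorial ICSI (1.455), the exception being Orc1 at 0.97. The widest was that of Cdc6 after contralateral ICSI, 3.28, from 29.4 to 96.3 CPM. Contralateral intact blastocysts had the lowest median of detected genes, 11003 beside 12422.5 (ipsilateral) and 12170.5 (equatorial). The part of this in the ratios was not tested. These ratios of means were not tested within a site, and the share of all genes with a ratio above 1 was not counted. No licensing gene passed the test of an interaction between site and twin status, nor did any gene (edgeR, 0% of 9379, 177 at an unadjusted p under 0.05). Site alone gave no call among the 10 genes in twin pairs (0% of 10995 genes, 669 unadjusted) or in intact blastocysts (0% of 9165 genes, 513 unadjusted), again by edgeR. Without a filter on low counts edgeR called 632 genes among the intact blastocysts and none in twins, no licensing gene among them.

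Depth, detected genes and markers of cell types moved with this comparison. Twin pairs had a median of 2200256 counts against 705837, and the number of detected genes did not overlap between twin pairs and intact blastocysts. With twins thinned to the intact median count, or with twin a or twin b alone, the same 8 genes passed by edgeR. Of all genes, 3711 of 8843 passed with thinned twins, 3505 of 9288 with twin a and 3820 of 9271 with twin b. An alternative chosen after the data were seen left out the 7 intact blastocysts with fewer detected genes than the lowest twin (10605). There the same 8 genes passed, with Gmnn at 0.87 ± 0.11 and Cdc6 at 0.90 ± 0.16, as did 4801 of all 9550 genes (2311 higher in twins). With the number of detected genes as a covariate none of the 10 passed, while 2209 of all 9379 genes did (910 higher in twins). The log2 fold changes fell to 0.38 for Gmnn, 0.13 for Cdc6 and 0.18 for Cdt1, and Mcm6 turned to -0.062. Mcm7 (0.56) and Mcm5 (0.45) came out nearest to the threshold. Once both twins are added that number separates the groups, so that in this fit its part and that of bisection cannot be told apart. Taken singly, twins had 10605 to 13247 detected genes and intact blastocysts 8264 to 12766, which overlap. Single twins were not fitted with this covariate.

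Summed CPM of 7 epiblast markers had a median of 522 (389 to 775) in twin pairs and 203 (28.05 to 546) in intact blastocysts, and 5 of the 7 passed as higher in twins. The 8 trophectoderm markers summed to 3618 (3183 to 3964) and 4220 (3268 to 6897), with 5 lower in twins and 1, Cdx2, higher. The 7 primitive endoderm markers summed to 660 (353 to 935) and 952 (150 to 1309), with 3 lower and Gata6 higher. The 7 transcripts listed as oocyte-derived summed to 552 (330.2 to 683) and 46.8 (0 to 403). Of these only Dppa3 was abundant enough to be tested and was higher in twins (2.79 ± 0.34). Bmp15, Nlrp5, Mos and Oosp1 were at a median of 0 in both groups, and Gdf9 and Zp3 in intact blastocysts. Whether Dppa3 transcripts came from the oocyte or from the embryo was not tested, so that these sums are no measure of oocyte RNA. Cumulus markers summed to 15.6 (3.42 to 30.7) and 13.7 (0 to 116.2). The part of these cell types in the licensing gene result was not tested.

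**Figure D5:**
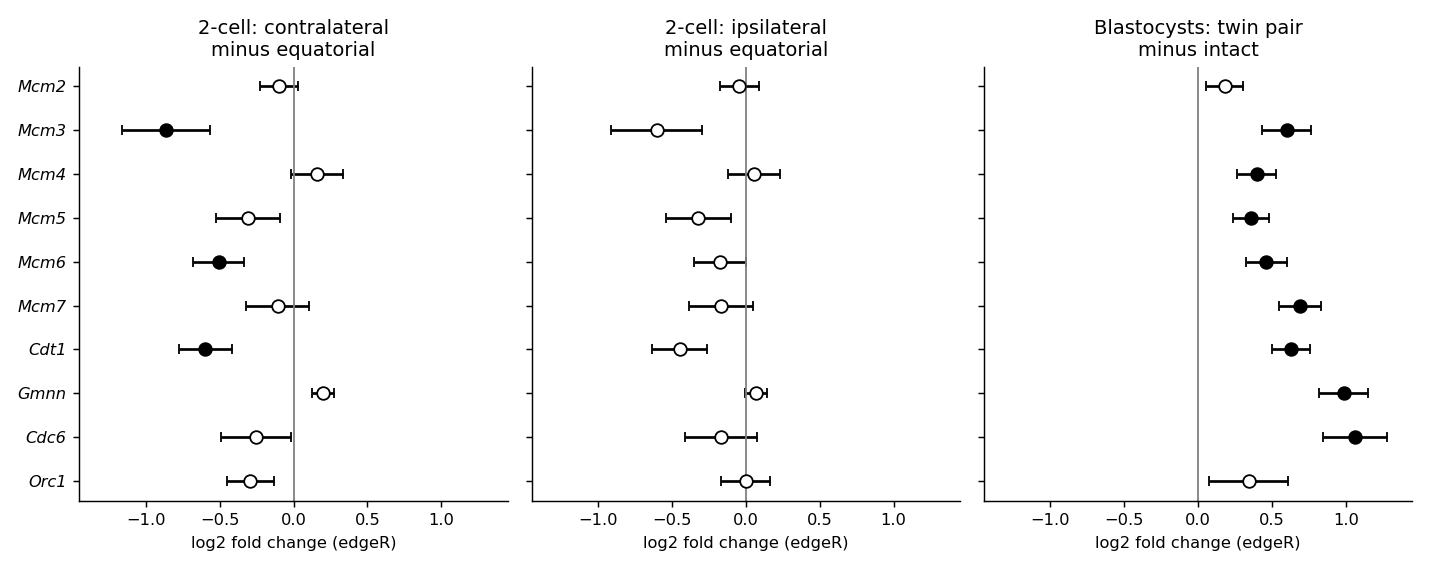
Log2 fold changes of each licensing gene by edgeR with bars of 1 SE, for contralateral and ipsilateral against equatorial 2-cell embryos and for twin pairs against intact blastocysts. Filled points passed an adjusted p of 0.05: 3 on the left, none in the middle and 8 on the right.

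The other genes of the pathway were followed in the same fits, in which 42.3% of all genes passed in either direction and 20.4% as higher in twins. Of 8 genes for the remaining ORC subunits and licensing partners, Orc6 (log2 fold change 0.70 ± 0.18) and the acetyltransferase Kat7 (0.33 ± 0.14) were higher and the MCM-binding protein Mcmbp (-0.35 ± 0.13) lower in twins, a share near that of all genes. Kat7 passed in 6 and Mcmbp in 7 of 11 alternatives. Of 16 genes of MCM relatives and origin firing, 15 were tested, 7 were higher and 1, Mtbp (-0.77 ± 0.31, named after its value was seen as the sole gene of its direction), was lower in twins. Mtbp passed in 6 of 11 alternatives, and Gins1, Ticrr, Mcm10 and Gins4 in at least 10. The higher genes with the smallest adjusted p were Gins1 (1.48 ± 0.20), Ticrr (1.40 ± 0.21), Mcm10 (1.36 ± 0.22) and Gins4 (1.10 ± 0.20), whose products turn loaded rings into active helicases. Gins1 ran from 79.9 to 147 CPM in twin pairs and from 0 to 87.2 in intact blastocysts.

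Of 14 genes for Cdt1 and geminin turnover, geminin relatives and S-phase kinases, 12 were tested, with 6 higher and 3 lower in twins, beside the same shares of all genes. Cdc20, an activator of the anaphase-promoting complex, ran from 218 to 379 CPM in twin pairs and from 14.8 to 222 in intact blastocysts (1.33 ± 0.13, edgeR, adjusted p = 1.22e-12). Cdk2 (0.80 ± 0.13) and Pcna (0.60 ± 0.14) were higher, and Ddb1, part of the ligase that degrades Cdt1 in S phase, was lower (-0.57 ± 0.13). Also of this list, Dtl was higher (0.63 ± 0.22) and Cul4a lower (-0.54 ± 0.21), passing in 10 and 7 of 11 alternatives. Both were named after their values were seen, so that the list gives no single direction for Cdt1 turnover. Of 11 E2F and pocket protein genes 9 were tested, none was higher and only the repressor E2f8 was lower (-1.72 ± 0.28).

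In contralateral against equatorial 2-cell embryos, where 13.2% of all genes passed, 2 of 8 genes of the first list, 2 of 16 of the second, 4 of 12 of the third and 4 of 10 of the fourth passed. Orc5 (0.52 ± 0.10), Orc6 (0.23 ± 0.08) and Gins4 (0.73 ± 0.22) were higher and Dbf4, the activator of the kinase Cdc7, was lower (-0.19 ± 0.06). Ddb1 (-0.60 ± 0.12) and Ccne1 (-0.74 ± 0.15) were lower, and Ccne2 (0.55 ± 0.14) and Cul4b (0.25 ± 0.09) higher. Orc6, Gins4, Dbf4 and Cul4b each passed in 6 of 9 alternatives and the other genes named in this comparison in at least 8. Of the 10 E2F and pocket protein genes tested, E2f1 (-0.71 ± 0.15), E2f2 (-0.89 ± 0.26) and E2f4 (-0.72 ± 0.14) were lower and Rbl1 (0.92 ± 0.24) higher. E2f1 ran from 85.4 to 455 CPM (median 196) in contralateral, from 109.1 to 319.9 (median 188) in ipsilateral and from 189 to 461 (median 325) in equatorial embryos. Against the same equatorial embryos, which both comparisons share, ipsilateral embryos were lower in E2f1 (-0.72 ± 0.15), E2f4 (-0.50 ± 0.14), Ddb1 (-0.67 ± 0.12), Fzr1 (-0.69 ± 0.22) and Dbf4 (-0.23 ± 0.06) and higher in Cul4b (0.30 ± 0.09). With depth covariates 51 genes were called as higher and 0 as lower in that comparison, so that the lower calls of these 5 genes were lost, and Fzr1 passed in 4 of 9 alternatives.

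Within plates, the licensing genes varied with each other weakly across 2-cell embryos. This is a description over 55 embryos, within each of which the genes share libraries and depth. Of the 15 pairs of Mcm2 to Mcm7, 14 had a Spearman coefficient above 0, with a median of 0.163. Mcm3 with Cdc6 was highest of all 45 pairs (0.575) and Cdt1 with Gmnn lowest (-0.581). Over the 50 blastocyst embryos, taken within twin or intact, all 15 Mcm pairs were above 0, with a median of 0.318, and Mcm6 with Mcm7 was highest (0.566). ICSI site was not taken out of these values or of those below, so that differences between sites enter them. The share of all gene pairs above 0 was not counted.

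The genes whose levels followed the mean of Mcm2 to Mcm7 most closely across 2-cell embryos were Larp1b (Spearman 0.733), Nop2 (0.727), Fkbp4 (0.716), Sh2d3c (0.714) and Wdr77 (0.693), beside a median of 0.009 over 13135 genes. Across blastocyst embryos they were Msh6 (0.659), Gtsf1l (0.646), Cdk1 (0.641), Wdr12 (0.640) and Nsun4 (0.637), beside a median of 0.132 over 9373 genes. Of the 4 other licensing genes, Cdc6 (0.521) and Cdt1 (0.518) came nearest to the Mcm mean at the 2-cell stage and Gmnn was at -0.189, while in blastocysts Orc1 (0.543) came nearest and Gmnn was at 0.428.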

How the data were processed

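The authors deposited raw read counts per gene for 125 blastomeres and 69 blastocysts, made with the SMART-Seq Single Cell Kit without molecular identifiers, so that intervals and floors cover counting error only. Per the submitters' processing notes and the study's methods, reads were trimmed with Trimmomatic (039), checked with FastQC 0.12.1 and aligned and counted without strand by STAR 2.7.10b against GRCm38 with mm10 named beside it. Of the pairs with both sisters (62), the 55 in which each blastomere had at least 9500 detected genes were kept. Counts of sisters and of twins were added, since the embryo is the replicate. CPM are counts scaled to the same raw total in each sample, and TPM used exonic lengths from a GENCODE release earlier than that of the study on the same build, found for 32235 genes.

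edgeR 4.0.16 in R 4.3.3 (TMM, filterByExpr, robust quasi-likelihood test) was fitted over all genes, adjusting 2-cell comparisons for plate, twins against intact blastocysts for ICSI site, and sister b against sister a for the embryo as a block. The files hold counts, so this test stands in place of the rank-sum test on added TPM that the study's methods name, which was run as an alternative. P-values were adjusted by Benjamini-Hochberg over all genes tested, with a threshold of 0.05, and percentages of genes called refer to it. Sister ratios used log2 of CPM with a pseudocount of 1 and a 2-sided permutation test (100000 resamples) of the difference in median size, adjusted over 30 comparisons. Alternatives were RLE factors, DESeq2 1.42.0, no filter on low counts, other sets of embryos, depth covariates, the rank-sum test, single, blocked (limma 3.58.1, correlation 0.197) or thinned twins, and a pseudocount of 5. Python 3.11.15 with SciPy 1.17.1 was used for the descriptions, and the scripts were tested on simulated data.

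The 10 genes and all gene lists were chosen with earlier results of these data known. Named were the 10 genes, at most 4 genes per pathway list and comparison with the smallest adjusted p among those that passed, and the 5 genes most correlated with the mean log2 CPM of Mcm2 to Mcm7. Mtbp, Dtl and Cul4a were named beside these after their values were seen.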

Additional observations from a re-analysis of the deposited data

Results flagged for a closer look

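Each of the 10 genes was screened in the 4 groups of 4 to 10 embryos, 40 sets in all, for an embryo that stood far from the others of its group, and chance alone marks about 1 in 20 such sets. There were 3. Mcm2 in ipsilateral intact blastocysts was lowest at 99.9 CPM in an embryo of 570673 counts, with the nearest of the 8 at 117.6 CPM. Mcm6 in ipsilateral twin pairs was highest at 260.2 CPM, with the nearest of the 7 at 202 CPM. Cdt1 in contralateral twin pairs was highest at 219 CPM, with the nearest of the 6 at 159 CPM. Each was a different embryo, and the cause was not tested.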

How the results depend on the processing

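Of 110 values of the 10 genes in twins against intact blastocysts under the alternatives, 100 kept their direction and their side of the threshold, as did 79 of 90 in contralateral against equatorial embryos. These counts include genes that passed in no setting. In contralateral against equatorial embryos Cdt1 and Mcm6 passed in 8 of 9 alternatives, Mcm3 in 6, Gmnn in 4 and the other genes in none. With detected genes as a covariate, 0 of the 10 genes and 2209 of all genes (23.6%) passed in twins against intact blastocysts, and Mcm6 turned to -0.062 on the log2 scale. Contralateral against equatorial embryos gave 1067 genes (8.12%) with depth covariates and 1104 (8.48%) under the mitochondrial limit, where 1 of the 10 genes passed. Ipsilateral against equatorial embryos gave 51 genes (0.388%) with depth covariates, 1321 (13.4%) by DESeq2 and 1362 (10.4%) by rank sum. With plate 1 alone 1 of the 10 genes, Cdt1, passed there, and 1108 of all 12864 genes did. Without a filter on low counts, 3930 genes (15.7%) passed for contralateral against equatorial, 2603 (10.4%) for ipsilateral against equatorial, 1577 (6.32%) for contralateral against ipsilateral, 6385 (27.7%) for twins and 632 (3.08%) for site in intact blastocysts, and DESeq2 called 0.479% for contralateral against ipsilateral. DESeq2 shifted the median log2 fold change of all genes in twins to -0.42. The adjusted p for contralateral against equatorial embryos ranged from 0.0036 to 0.098 for Cdt1, from 0.026 to 0.090 for Mcm6, from 0.022 to 0.181 for Mcm3 and from 0.011 to 0.482 for Gmnn. Other log2 values that turned did not pass the test. For contralateral against equatorial they were Mcm2 under the mitochondrial limit (0.036) and Cdc6 with depth covariates (0.033). For contralateral against ipsilateral they were Mcm2 (0.038) and Mcm5 (-0.0088) under the mitochondrial limit, Mcm5 (-0.024) and Mcm7 (-0.045) with plate 1 alone, Mcm5 by rank sum (-0.040) and Cdc6 with all pairs (0.056). For ipsilateral against equatorial they were Mcm2 without a plate term (0.0058), Mcm4 under the mitochondrial limit (-0.0038), Gmnn by rank sum (-0.012), Cdc6 with depth covariates (0.11), and Orc1 by DESeq2 (0.0078), with RLE factors (0.0075), with depth covariates (0.021), without a filter (0.014) and under the mitochondrial limit (0.021). With plate 1 alone, differences in sister ratio turned for Mcm2 (-0.093) and Cdc6 (0.085) in ipsilateral against equatorial and for Orc1 (0.18) in contralateral against ipsilateral embryos. The cause was not tested. Comparisons between ICSI sites and of twins with intact blastocysts could not be paired, because embryo numbers are not shared between those groups. The shallowest intact blastocysts limit what can be read from values at 0.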
